A study of Mus musculus with 4 samples.

Results

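Growth factors that act through receptor tyrosine kinases were followed in mouse mesenchymal stem cells (MSC): the FGF, EGF, VEGF, HGF, Gas6 and neurotrophic ligands, their receptors, and the feedback inhibitors Spry1, Spry2, Spry4 and Dusp6. The 46 genes were chosen by name, as ligands, receptor tyrosine kinases and feedback genes, out of 18193 genes that the array annotation pairs with a probe set of their own. Of the 46 genes, 45 had such a probe set, 41 passed the filter on low values (a mean over the 4 arrays above an intensity of about 31.9), and 4 did not. Areg was the gene without one. The arrays held 2 colonic MSC lines, grown from flushed colon, and 2 bone marrow MSC lines, all from C57BL/6 mice, with 1 array for each line. All lines were isolated by adherence to plastic after collagenase digestion, cultured with 10% serum in a medium low in glucose, and used for RNA somewhere between passages 5 and 10. The labels call the lines of a tissue biological replicates and do not say whether a line came from 1 mouse or from several, nor the passage or mouse age behind each array.

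Receptor tyrosine kinases are single-pass membrane proteins that pair up when a ligand binds and then phosphorylate each other. Adaptors such as Grb2 and Frs2 pass the signal to Ras and the ERK kinases, and ERK in turn switches on genes such as the Sprouty proteins and the phosphatase Dusp6, which damp the same pathway. Stromal cells are best known as senders in this network: fibroblast-derived Fgf7 and Hgf act on epithelium, Vegfa on endothelium and Gdnf on enteric neurons. They also respond, through receptors such as Fgfr1, Egfr and Axl.

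The median intensity of the 4 arrays lay between 53.6 and 55.5, and the 2 lines of a tissue correlated across probe sets, which are not replicates, with r = 0.967 in colon and r = 0.973 in bone marrow. Of 11 MSC surface markers, 10 had a probe set and 10 passed the filter. Their summed intensity was 31755 and 32121 in colonic lines, against 21952 and 20555 in bone marrow lines. Cd44 and Itgb1 were bright on every array, at 4867 or above. Thy1, a standard MSC marker, was at 4516 and 9032 in colonic lines, against 32.8 and 22.0 in bone marrow lines, where it lay near the floor of the array. Cd34 was at 2038 and 4278 in colonic lines, against 7.22 and 22.1 in bone marrow lines. The PDGF receptors Pdgfra and Pdgfrb went the other way. Pdgfra was at 492 and 743 in colonic lines, against 1609 and 2493 in bone marrow lines, and Pdgfrb was at 3377 and 3844 in colonic lines, against 5042 and 4686 in bone marrow lines. Of the endothelial markers, Egfl7 was the brightest, at 189 and 120 in colonic lines, against 83.1 and 165 in bone marrow lines, and Emcn was at most 92.0. The other endothelial markers were at most 37.0, and the mast cell markers at most 33.2, on any array. Precision is limited by there being 4 arrays, and in bulk RNA a smaller share of cells that use a gene and less of its RNA in each cell cannot be told apart.

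The comparison asks in which of these ligands, receptors and inhibitors colonic MSC differ from bone marrow MSC kept in the same medium. None of the 41 genes passed limma's test at an adjusted p of 0.05, and neither did any of the 12920 genes tested (0%). The lowest adjusted p among the 41 was 0.521, for Kdr. Without correction, 6 of the 41 and 775 of the 12920 had a p under 0.05. The genes below are therefore described by their values on the 4 arrays, and "without overlap" means that both colonic arrays lay on one side of both bone marrow arrays. Every difference is colonic minus bone marrow MSC on the scale log2(intensity + 13.7), where 1 is a doubling for bright genes and stands for more than a doubling of intensity near the floor.

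Egfr, the receptor for EGF, Tgfa, Areg, Hbegf, Ereg and Btc, had the highest positive difference of the 41, and Fgf7, a fibroblast growth factor for epithelium, the most negative one. A difference of at least 1 without overlap was found toward colonic MSC in 4 genes, Egfr, Flt1, Fgf2 and Kdr, 9.76% of the 41, against 3.98% of all genes tested. Toward bone marrow MSC it was found in 6 genes, Fgf7, Gdnf, Pgf, Ret, Mertk and Fgfr2, 14.6% of the 41, against 2.69% of all genes. Without overlap at any size were 21 of the 41, or 51.2%, against 33.5% of all genes. The median difference of the 41 was 0.32, against 0.01 over all genes. These counts cover the genes that passed the filter, and 6 of the 41 (Fgf2, Btc, Kdr, Flt1, Tek and Ntrk3) passed through 1 tissue alone, which favours a difference. The counts are a description, not support for the list as a whole.

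**Figure D1:**
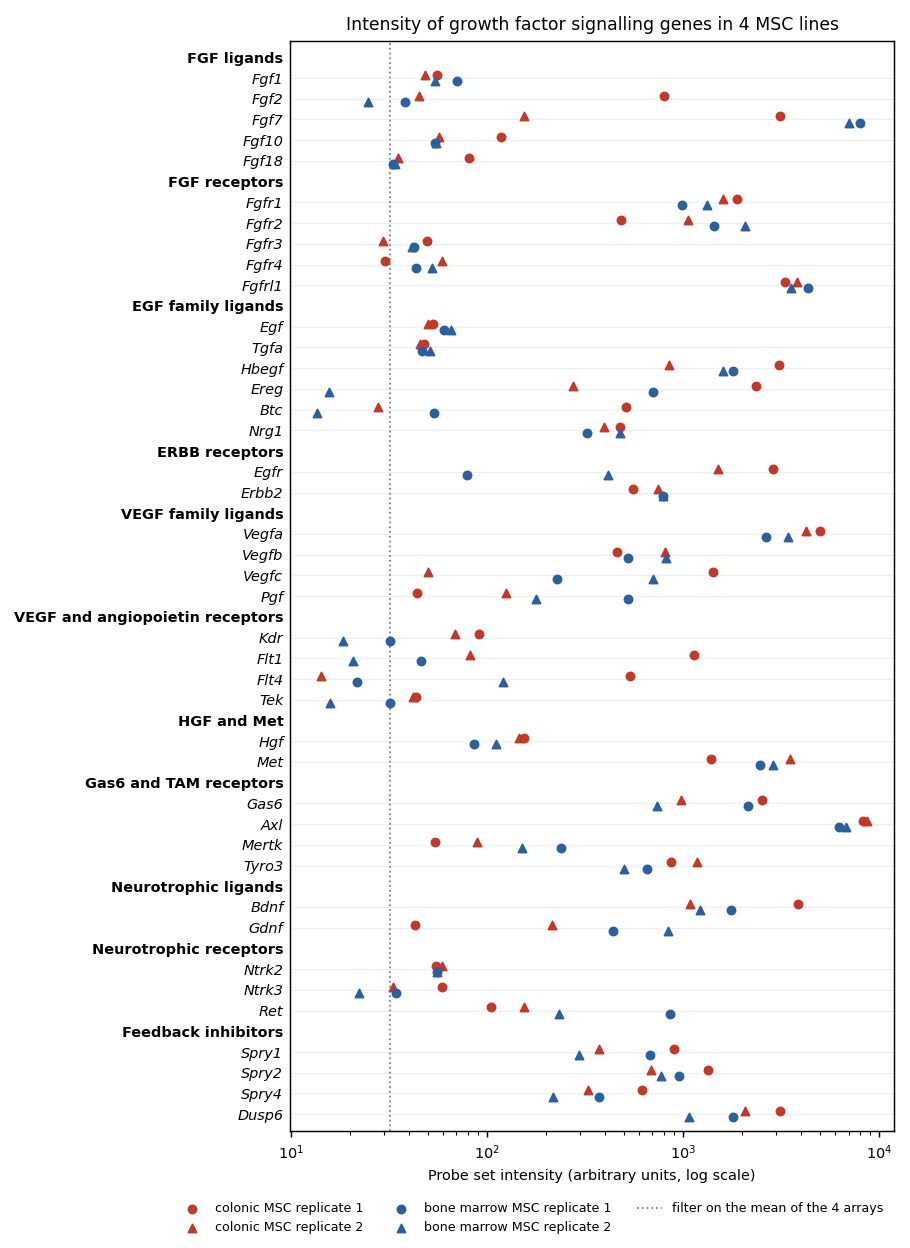
Intensity of the 41 signalling genes past the filter (rows, by role) on each of 4 arrays, on a log axis in arbitrary units. Colonic lines are drawn in red and bone marrow lines in blue, circles for replicate 1 and triangles for replicate 2, and the dotted line marks the filter on the mean (31.9). For Egfr both red points lie right of both blue points, and for Fgf7 both blue points lie right of both red points.

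The sequences upstream of the 4 genes at the ends of this range with a RefSeq promoter entry are shown, since these are the genes whose level set the tissues furthest apart. Each line gives the 250 bases before the annotated start, 5′ to 3′ on the strand of the gene, from RefSeq on GRCm38.p6. They lie at chr11:16751953-16752202 (plus strand) for Egfr, chr5:147726012-147726261 (minus strand) for Flt1, chr2:126034408-126034657 (plus strand) for Fgf7 and chr15:7809798-7810047 (plus strand) for the upstream one of the Gdnf starts. Capitals mark matches, on either strand, to 4 short motifs that are spelled out after the sequences.
Egfr: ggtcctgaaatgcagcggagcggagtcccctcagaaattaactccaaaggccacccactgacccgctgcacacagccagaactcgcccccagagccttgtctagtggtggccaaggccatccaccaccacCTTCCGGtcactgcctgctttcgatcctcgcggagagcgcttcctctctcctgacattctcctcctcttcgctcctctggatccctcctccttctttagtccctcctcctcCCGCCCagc
Flt1: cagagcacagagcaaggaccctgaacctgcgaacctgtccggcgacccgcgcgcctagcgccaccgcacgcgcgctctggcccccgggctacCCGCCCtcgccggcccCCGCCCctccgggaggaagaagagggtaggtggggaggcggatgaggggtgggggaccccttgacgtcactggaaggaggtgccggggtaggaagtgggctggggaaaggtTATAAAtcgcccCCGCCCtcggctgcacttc
Fgf7: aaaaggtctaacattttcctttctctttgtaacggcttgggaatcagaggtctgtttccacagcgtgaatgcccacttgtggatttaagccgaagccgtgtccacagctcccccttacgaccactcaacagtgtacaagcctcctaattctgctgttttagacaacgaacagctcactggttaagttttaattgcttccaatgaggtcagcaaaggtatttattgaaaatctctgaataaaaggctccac
Gdnf: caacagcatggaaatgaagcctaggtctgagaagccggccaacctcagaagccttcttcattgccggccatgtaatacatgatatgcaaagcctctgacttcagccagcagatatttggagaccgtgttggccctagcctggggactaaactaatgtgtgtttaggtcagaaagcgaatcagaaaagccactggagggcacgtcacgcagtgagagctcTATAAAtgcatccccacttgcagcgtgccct

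The Egfr promoter held 1 match to the ETS core and 1 to the GC box, on the strand opposite to the gene. The Flt1 promoter held 3 GC boxes and 1 TATA box, the Gdnf promoter 1 TATA box, and the Fgf7 window none of the 4 motifs. No matches overlapped each other in these windows. The ETS core was searched as CCGGAAG and stood in 6.91% of all 32851 promoter windows of this length. The GC box was searched as GGGCGG and stood in 32.7% of those windows. The TATA box was searched as TATAAA and stood in 12.4% of them. The AP-1 site was searched as TGANTCA and stood in 6.75% of them. GC content was 60.8% for Egfr and 70.4% for Flt1, and 43.6% for Fgf7 and 50.8% for Gdnf, against a median of 52.4% over all windows. A match says only that these letters are present.

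Among the FGF ligands, Fgf7 and Fgf2 went in opposite directions, and in both the colonic lines were far apart. Fgf7, made by mesenchyme and sensed by epithelium through Fgfr2, had intensities of 3146 and 154 in colonic lines, against 8009 and 7034 in bone marrow lines. Its averages were 1650 ± 2116 (SD, n = 2) in colonic MSC and 7522 ± 690 (SD, n = 2) in bone marrow MSC. The bone marrow lines were both high and close together, and the colonic lines both lay below them. The difference was -3.37 ± 1.42 (SE, adjusted p = 0.869), and the second probe set of Fgf7 gave -3.88. Without colonic replicate 1 the difference was -5.49, and without colonic replicate 2 it was -1.25, each with a single colonic array left. The summed intensity of the 9 epithelial markers ran in the same order as Fgf7, at 3059 and 287 in colonic lines, against 6422 and 5353 in bone marrow lines. Of the 9, 5 passed the filter, and Krt19, which had the order of Fgf7, made most of the sum in all lines but colonic replicate 2. Krt20 was at 889 and 29.1 in colonic lines, against 29.4 and 15.9 in bone marrow lines. Krt18 was at 125 and 28.3 in colonic lines, against 45.1 and 102 in bone marrow lines. Both were thus highest in colonic replicate 1, unlike Fgf7. Epcam was at most 19.6 and Cdh1 was at most 44.8 on any array. The part of these cells or genes in the Fgf7 result was not tested.

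Fgf2, a broad mitogen that is widely used to expand MSC in culture, was at 801 and 45.0 in colonic lines, against 38.0 and 24.6 in bone marrow lines. One colonic line was thus bright and the other lay just above the bone marrow lines. The difference was 2.30 ± 1.30 (SE, adjusted p = 0.965) and came to 0.40 without colonic replicate 1 and to 4.20 without colonic replicate 2. Fgf10, another mesenchymal ligand of Fgfr2, was at 119 and 57.0 in colonic lines, against 54.7 and 55.3 in bone marrow lines. Fgf18, known from cartilage and bone, was at 81.4 and 35.4 in colonic lines, against 33.1 and 34.2 in bone marrow lines. In both genes only colonic replicate 1 stood clear of the other 3 arrays, with differences of 0.49 and 0.53. Fgf1, which can bind all FGF receptors, lay between 48.3 and 70.5 on all arrays with its brighter probe set (-0.21). Its other probe set was at 115 and 23.3 in colonic lines, against 21.5 and 20.3 in bone marrow lines, a difference of 1.00. Fgf9, a ligand of mesenchymal FGF receptors, and the endocrine factor Fgf21 stayed below the filter, with every probe set at or under 25.2 for Fgf9 and 40.9 for Fgf21.

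Of the FGF receptors, Fgfr2 was lower and Fgfr1 higher in colonic MSC without overlap in their brightest probe sets, neither past limma's test. Fgfr2 was at 482 and 1064 in colonic lines, against 1434 and 2066 in bone marrow lines, a difference of -1.25 ± 0.49 (SE, adjusted p = 0.846). It came to -0.69 without colonic replicate 1. A dimmer probe set of Fgfr2 gave -0.51. Fgfr1, the main FGF receptor of stromal cells, was at 1879 and 1593 in colonic lines, against 989 and 1329 in bone marrow lines. Its 3 probe sets gave differences between 0.44 and 0.88, and in the one with 0.44 the tissues overlapped, at 652 and 463 in colonic lines, against 289 and 552 in bone marrow lines. Without bone marrow replicate 1 the difference of the brightest was 0.38, against 0.59 with all arrays. The decoy-like receptor Fgfrl1, which lacks a kinase domain, was bright and alike on all arrays, at 3322 and 3826 in colonic lines, against 4328 and 3565 in bone marrow lines. Fgfr3 and Fgfr4 lay near the floor, between 29.6 and 49.3 for Fgfr3 and between 30.1 and 59.1 for Fgfr4 over the 4 arrays with their brightest probe sets.

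Egfr was the clearest receptor on the colonic side. Its intensity was 2873 and 1520 in colonic lines, against 79.2 and 417 in bone marrow lines, or 2196 ± 957 and 248 ± 239 on average (SD, n = 2 each). Both tissues varied, yet the lower colonic line lay well above the higher bone marrow line. The difference was 3.39 ± 0.85 (SE, adjusted p = 0.583), with 2.29 and 4.50 as its lowest and highest values when 1 array was left out. Of its 6 probe sets past the filter, 4 gave differences between 2.15 and 3.42, and the other two, at or under 79.5 on every array, gave -0.18 and 0.18. The mean of the 6 gave 1.93. Erbb2, the co-receptor that binds no ligand of its own, was at 558 and 747 in colonic lines, against 789 and 794 in bone marrow lines. Erbb3, a neuregulin receptor, stayed below the filter, with no value above 31.4.

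Of the EGF family ligands, Ereg, Btc and Hbegf had colonic lines further apart than the tissues. Ereg (epiregulin) was at 2375 and 275 in colonic lines, against 704 and 15.7 in bone marrow lines, a difference of 2.52 ± 1.86 (SE, adjusted p = 0.976). Each tissue held a high and a low line, and the tissues overlapped. Leaving out bone marrow replicate 2 gave 0.21, and leaving out bone marrow replicate 1 gave 4.82. The summed intensity of 6 enteric glia, neuron and Cajal cell markers had the same order, at 1800 and 250 in colonic lines, against 491 and 218 in bone marrow lines. Ano1 and Uchl1 were the 2 past the filter and made most of each sum. Ano1 had the order of Ereg, at 905 and 80.8 in colonic lines, against 292 and 50.6 in bone marrow lines. Uchl1 did not, at 814 and 100 in colonic lines, against 87.0 and 91.5 in bone marrow lines. Sox10, at most 32.7, was near the floor. The part of these genes in the Ereg result was not tested. Btc (betacellulin) was at 515 and 27.9 in colonic lines, against 53.8 and 13.6 in bone marrow lines, so that colonic replicate 1 alone was bright. Its second probe set gave a difference of 0.57, against 1.79 for the first. Hbegf, which is shed from the cell surface, was at 3089 and 846 in colonic lines, against 1805 and 1597 in bone marrow lines. The bone marrow lines lay between the colonic ones, and the difference was -0.07. Nrg1 (neuregulin 1), the ligand of Erbb3, was at 480 and 398 in colonic lines, against 324 and 478 in bone marrow lines. Egf and Tgfa themselves lay between 45.8 and 65.3 on all arrays, in the dim part of the range. For Egf both colonic arrays were the lower ones, with a difference of -0.24.

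**Figure D2:**
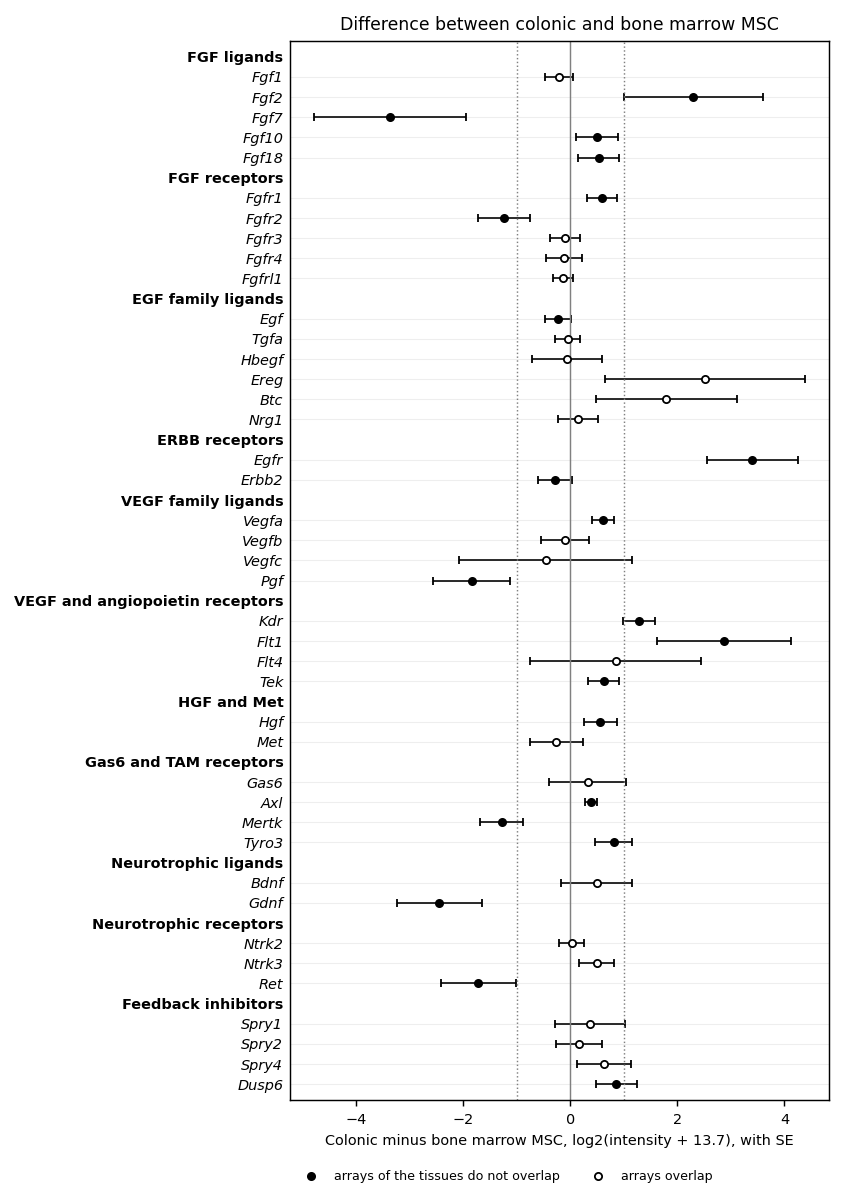
Difference between colonic and bone marrow MSC for the 41 genes (rows, by role) on the log2(intensity + 13.7) scale, with bars of 1 SE from limma. Filled points mark genes whose 2 colonic and 2 bone marrow arrays do not overlap, and dotted lines mark differences of 1 and -1. Egfr lies at 3.39 and Fgf7 at -3.37.

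Among the VEGF family ligands, Vegfa and Pgf pointed opposite ways. Vegfa, the main growth factor of blood vessels, was bright in all lines, at 5020 and 4239 in colonic lines, against 2665 and 3448 in bone marrow lines. The colonic lines were the 2 higher ones, and the difference was 0.60 ± 0.21 (SE, adjusted p = 0.763), with 0.68 from a second probe set. Pgf (placental growth factor), which signals through Flt1, was at 43.9 and 125 in colonic lines, against 527 and 177 in bone marrow lines. Its difference of -1.84 ± 0.72 (SE, adjusted p = 0.846) came to -1.09 without bone marrow replicate 1 and to -1.21 without colonic replicate 1. Vegfc, the lymphatic growth factor, was at 1421 and 49.9 in colonic lines, against 229 and 705 in bone marrow lines. The colonic lines were thus the highest and the lowest of the 4, which all 3 probe sets showed. Its difference was -0.47, with 1.78 without colonic replicate 2 and -2.71 without colonic replicate 1. Vegfb overlapped between tissues, at 462 and 813 in colonic lines, against 524 and 823 in bone marrow lines.

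The receptors of these factors are known mainly from endothelium, and they were dim in most lines. Kdr (VEGFR2), the main signalling receptor for Vegfa, was at 91.1 and 68.9 in colonic lines, against 31.9 and 18.5 in bone marrow lines. It had the lowest p of the 41 genes, with a difference of 1.28 ± 0.30 (SE, adjusted p = 0.521), though all 4 values were low. With a pseudocount of the table median in place of 13.7 the difference was 0.76. Flt1 (VEGFR1), which binds Vegfa and Pgf, was at 1143 and 82.0 in colonic lines, against 46.4 and 20.9 in bone marrow lines. Colonic replicate 1 was bright and the second colonic line lay only just above bone marrow. The difference was 2.87 ± 1.25 (SE, adjusted p = 0.882), 1.07 without colonic replicate 1 and 4.67 without colonic replicate 2, and its 4 probe sets gave between 0.87 and 2.87. In the one with 0.87 the tissues overlapped, at 130 and 32.9 in colonic lines, against 42.2 and 21.9 in bone marrow lines. Flt4 (VEGFR3), the receptor of Vegfc, was at 540 and 14.2 in colonic lines, against 21.9 and 121 in bone marrow lines. As for Vegfc, colonic replicate 1 was the highest and colonic replicate 2 the lowest. In bone marrow, replicate 2 was above replicate 1 for both genes. Tek (Tie2), the angiopoietin receptor, was at 43.6 and 42.2 in colonic lines, against 32.0 and 15.9 in bone marrow lines.

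Endothelial markers were dim in all lines. Of the 8 markers listed, 2 passed the filter, and the summed intensity of all 8 was 366 and 238 in colonic lines, against 244 and 287 in bone marrow lines. The highest sum was in colonic replicate 1, as for Flt1 and Flt4, and Egfl7 and Emcn made most of it. Egfl7, Emcn, Cldn5 and Esam were highest in that line, whereas Cdh5 and Vwf were lowest there, at 11.2 and 6.88. The part of such cells in the Flt1 and Flt4 results was not tested. Pecam1 was at most 2.48 and Cdh5 at most 24.2 on any array.

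**Figure D3:**
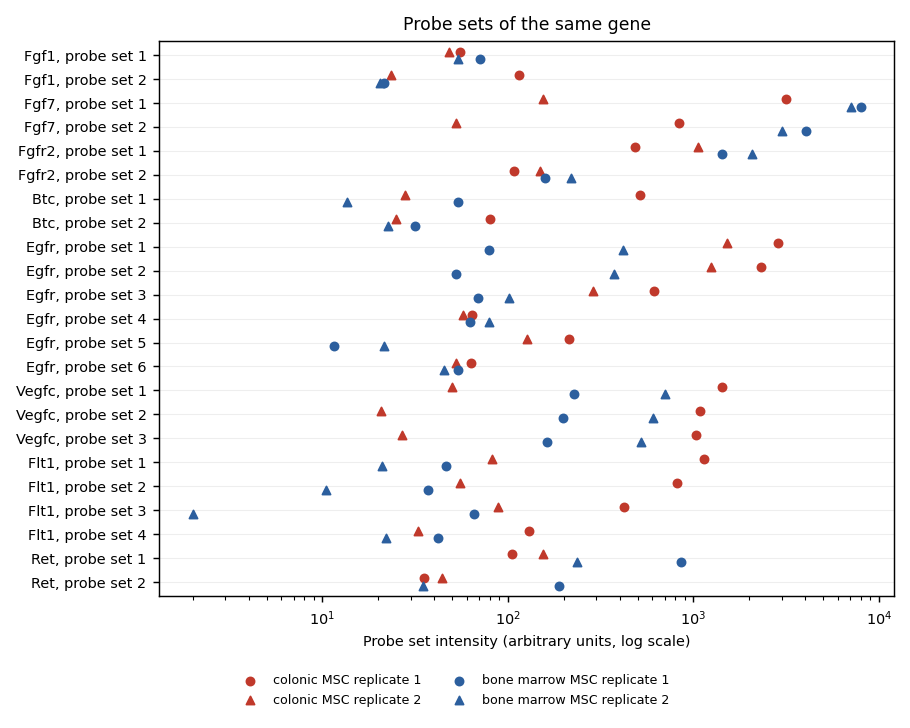
Intensity of each probe set past the filter for 8 genes with more than 1, by array, on a log axis in arbitrary units; probe sets are numbered from the brightest. Colonic lines are in red and bone marrow lines in blue. In 4 of the 6 probe sets of Egfr both red points lie right of both blue ones, and the 3 probe sets of Vegfc have the red points at both ends.

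Hgf, a mesenchymal factor for epithelium, and its receptor Met were less apart. Hgf was dim, at 155 and 146 in colonic lines, against 86.4 and 111 in bone marrow lines, a difference of 0.56 ± 0.31 (SE, adjusted p = 0.965). Met was at 1385 and 3538 in colonic lines, against 2462 and 2877 in bone marrow lines. The bone marrow lines lay between the colonic ones, and the difference was -0.26. Kit, the receptor for stem cell factor, stayed below the filter at 14.5 and 16.5 in colonic lines, against 34.3 and 49.6 in bone marrow lines. Its ligand gene Kitl, a niche factor of bone marrow stroma, was at 2047 and 1672 in colonic lines, against 2112 and 3466 in bone marrow lines.

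The Gas6 receptors Tyro3, Axl and Mertk, whose initials give the name TAM and which take part in clearing dying cells, did not all point one way. Axl, the TAM receptor typical of fibroblasts, was among the most even genes within each tissue, at 8276 and 8690 in colonic lines, against 6234 and 6759 in bone marrow lines. Its difference was small, 0.38 ± 0.11 (SE, adjusted p = 0.651), with no overlap and between 0.33 and 0.44 when any 1 array was left out. Tyro3 was at 874 and 1186 in colonic lines, against 658 and 503 in bone marrow lines, a difference of 0.81, and its second probe set gave 0.85. Mertk, the TAM receptor of macrophages, went the other way, at 54.3 and 89.4 in colonic lines, against 239 and 151 in bone marrow lines. Its difference was -1.29 ± 0.40 (SE, adjusted p = 0.705), between -1.60 and -0.98 with any 1 array left out. The summed intensity of 9 macrophage markers was 1675 and 1585 in colonic lines, against 2857 and 1107 in bone marrow lines, highest in bone marrow replicate 1 as Mertk was. In bone marrow replicate 2 the sum was below both colonic lines, whereas Mertk was above both. Of the 9, 5 passed the filter, and Lyz2 made most of the sum in bone marrow replicate 1. Cd14 was at 963 and 573 in colonic lines, against 810 and 735 in bone marrow lines, and Csf1r was at 324 and 244 in colonic lines, against 266 and 148 in bone marrow lines, so that both were highest in colonic replicate 1, unlike Mertk. Ptprc, at most 28.6, and Tyrobp, at most 2.15, were near the floor; the part of such cells in the Mertk result was not tested. Gas6, the ligand itself, was at 2546 and 975 in colonic lines, against 2139 and 739 in bone marrow lines. Each tissue held a high and a low line, and the tissues overlapped, with a difference of 0.32 ± 0.72 (SE, adjusted p = 0.984).

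Of the neurotrophic genes, Gdnf and its receptor Ret both lay lower in colonic MSC without overlap. Gdnf, which guides enteric neuron precursors in the gut, was at 43.2 and 214 in colonic lines, against 440 and 835 in bone marrow lines. The difference was -2.45 ± 0.80 (SE, adjusted p = 0.720), and came to -1.45 without colonic replicate 1 and to -3.45 without colonic replicate 2. Ret was at 105 and 154 in colonic lines, against 860 and 235 in bone marrow lines, a difference of -1.72 ± 0.70 (SE, adjusted p = 0.857). Bone marrow replicate 1 carried much of it, the value without that array being -0.81. In the dimmer probe set of Ret the tissues overlapped, at 35.3 and 44.3 in colonic lines, against 188 and 35.0 in bone marrow lines. Bdnf, the ligand of Ntrk2, was at 3889 and 1086 in colonic lines, against 1750 and 1220 in bone marrow lines. Here too the colonic lines were the highest and the lowest. Ntrk2 (TrkB) lay between 55.2 and 58.8 on all arrays, and Ntrk3 (TrkC) between 22.4 and 59.1, both near the floor.

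The feedback inhibitors that ERK signalling switches on were measured in every line. Dusp6, the phosphatase that turns ERK off, was at 3133 and 2064 in colonic lines, against 1810 and 1076 in bone marrow lines. Its difference was 0.86 ± 0.38 (SE, adjusted p = 0.896), and the tissues did not overlap. It came to 0.49 without bone marrow replicate 2 and to 0.56 without colonic replicate 1. Spry4 was at 620 and 326 in colonic lines, against 374 and 218 in bone marrow lines, a difference of 0.63, and another of its probe sets gave -0.02. The Spry4 difference came to 0.18 without colonic replicate 1 and to 0.26 without bone marrow replicate 2. Spry1 was at 901 and 374 in colonic lines, against 680 and 294 in bone marrow lines (0.37). Spry2 was at 1337 and 685 in colonic lines, against 953 and 769 in bone marrow lines (0.16). With the brightest probe set of each of the 4 inhibitors, the line labelled replicate 1 was the brighter one in either tissue. In these probe sets the tissues overlapped for Spry1, Spry2 and Spry4. In a dimmer probe set of Spry4, bone marrow replicate 2 was the brighter line, at 85.4 against 71.3 in replicate 1.

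The gap between the 2 lines of a tissue was also wide in many of these genes. The colonic lines were at least 1 log2 unit apart in 15 of the 41 genes, or 36.6%, against 13.6% of all genes tested. The brighter line was colonic replicate 1 in 11 of them (Fgf2, Fgf7, Hbegf, Ereg, Btc, Vegfc, Flt1, Flt4, Gas6, Bdnf and Spry1), or 26.8% of the 41, against 7.37% of all genes. It was colonic replicate 2 in 4 of them (Fgfr2, Pgf, Met and Gdnf), or 9.76%, against 6.23% of all genes. The widest colonic gaps were 4.50 for Vegfc, 4.31 for Flt4, 4.23 for Fgf7 and 3.80 for Fgf2. Of the bone marrow lines, 22% of the 41 genes (9 of them) were this far apart, against 11% of all genes, with the widest gap in Ereg at 4.61. A gene can pass the filter through 1 bright array, as Btc did through colonic replicate 1, which favours a gap. The list was also chosen with earlier results of these data known, so these counts are a description and not support for the list. In 24 of the 41 genes the colonic gap was larger than the tissue difference. This share was no higher than the 62.0% of all genes, so it is not particular to these genes. With 2 lines a tissue, passage, mouse and culture cannot be told apart as parts of these gaps.

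**Figure D4:**
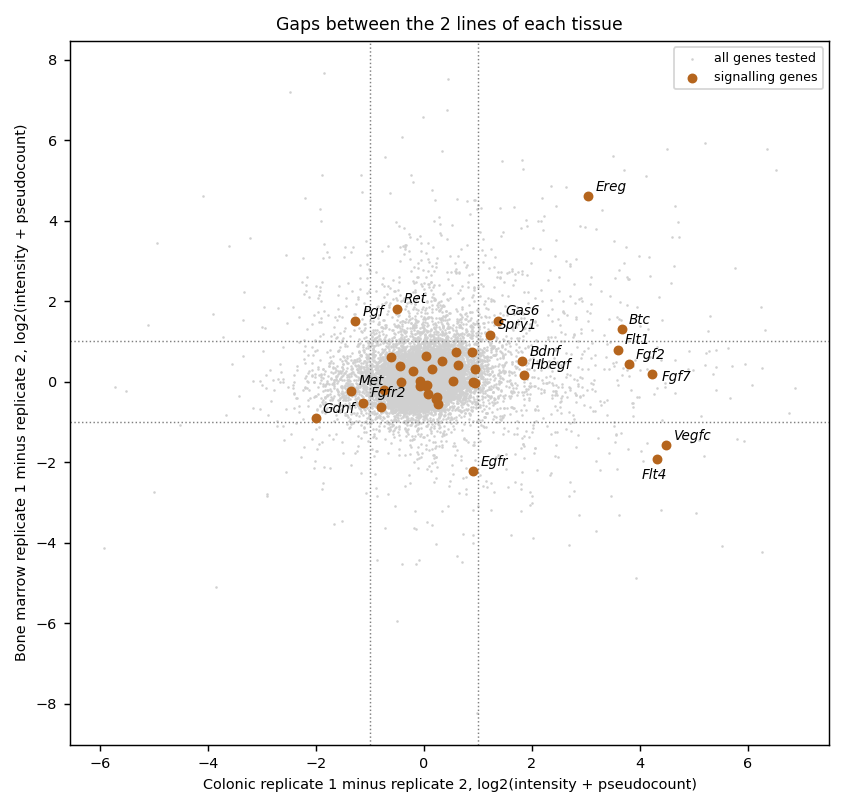
Replicate 1 minus replicate 2 on the log2(intensity + 13.7) scale in colonic MSC (horizontal) and bone marrow MSC (vertical), for all 12920 genes (grey) and the 41 signalling genes (brown). Dotted lines mark gaps of 1 and -1, and genes beyond either are named. Vegfc, Flt4, Fgf7, Fgf2, Btc and Flt1 lie far to the right, and Ereg is far from 0 on both axes.

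Other genes of the same pathways were read from 4 lists chosen by name. None of them held a gene past limma's test in either direction. The list of further FGF, EGF and VEGF family ligands and receptors had 26 genes with a probe set, of which 5 passed the filter. Of the 5, 0 differed by at least 1 without overlap (median -0.37), against 3.98% higher and 2.69% lower over all genes tested. These 5 included the VEGF and semaphorin co-receptors Nrp1 and Nrp2. Nrp1 was at 3761 and 3398 in colonic lines, against 1565 and 3085 in bone marrow lines, a difference of 0.70. Nrp2 went the other way, at 3478 and 1518 in colonic lines, against 4687 and 3890 in bone marrow lines, a difference of -0.89. Fgf4 and Fgf3, known mainly from embryos, were at most 93.1 and 72.8 on any array.

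Among 18 genes past the filter in the list of further ligands and co-receptors for Met, Kit, Tek, TAM, Trk and Ret receptors, 3 were higher and 1 was lower in colonic MSC by at least 1 without overlap (median 0.07), where the shares over all genes tested were 3.98% higher and 2.69% lower. The lower one was Angpt1, the activating ligand of Tek, at 13.3 and 1 in colonic lines, against 1525 and 498 in bone marrow lines. Both colonic values lay at the floor, so Angpt1 passed the filter through bone marrow alone, which favours a difference. Its difference of -5.48 ± 0.67 (SE) had an adjusted p of 0.142 with limma. A dimmer probe set of Angpt1 gave -0.99. The higher ones were the proneurotrophin receptor Sort1, the TrkB ligand gene Ntf5 and the heparin-binding factor Ptn. Sort1 was at 434 and 388 in colonic lines, against 158 and 38.2 in bone marrow lines, a difference of 2.17, with 0.79 and 0.88 from its other probe sets. Ntf5 was at 227 and 101 in colonic lines, against 53.9 and 37.8 in bone marrow lines, a difference of 1.50. Ptn was at 1099 and 4226 in colonic lines, against 691 and 22.6 in bone marrow lines, so that bone marrow replicate 2 stood apart from the rest.

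Of the adaptors and kinases between receptor and ERK, 19 passed the filter (median difference 0.10). Of the 19, 0 differed by at least 1 without overlap, against 3.98% higher and 2.69% lower over all genes tested. In 0 of the 19 were the colonic lines at least 1 log2 unit apart, against 13.6% of all genes. With so few genes, these counts are a description and not a result about the group. The 4 with the lowest p were the ubiquitin ligase Cbl (0.42), the Ras inhibitor Rasa1 (0.39), Cblb (-0.58) and the adaptor Grb2 (0.30). The list of ERK feedback and target genes had 24 past the filter, of which 4 were higher in colonic MSC by at least 1 without overlap and 0 lower (median 0.47), against 3.98% higher and 2.69% lower over all genes tested. Dusp4, a nuclear phosphatase for ERK, was at 3052 and 6677 in colonic lines, against 215 and 308 in bone marrow lines. Its difference of 4.06 ± 0.48 (SE, adjusted p = 0.142) was the widest of that list, from its only probe set. Dusp5, a related phosphatase, was at 1082 and 892 in colonic lines, against 442 and 315 in bone marrow lines. Lrig1, which promotes the breakdown of Egfr and its relatives, was at 1228 and 1235 in colonic lines, against 477 and 545 in bone marrow lines, with 1.25 and 1.09 from its probe sets past the filter. Spred3, a Sprouty relative, was at 1116 and 788 in colonic lines, against 399 and 357 in bone marrow lines. Of the 24, 18 had a difference above 0 and 6 had one below 0. The most negative was that of Errfi1 (-0.95), at 5403 and 3396 in colonic lines, against 6419 and 10719 in bone marrow lines, without overlap. Whether this list differs from the adaptors was not tested.

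**Figure D5:**
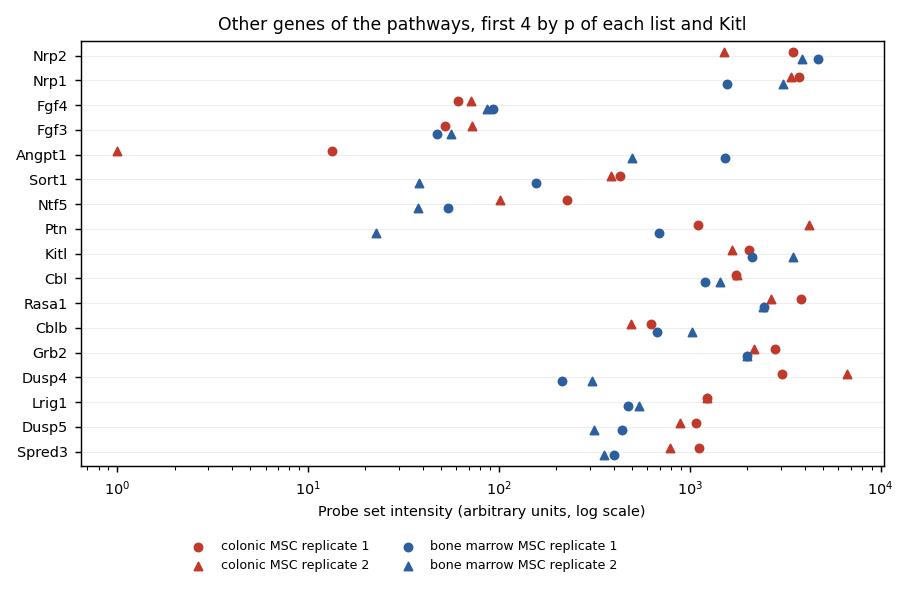
Intensity by array, on a log axis in arbitrary units, of the 4 genes with the lowest p in each of 4 pathway lists and of Kitl, colonic lines in red and bone marrow lines in blue. For Dusp4, Lrig1, Dusp5 and Spred3 both red points lie right of both blue points, and for Angpt1 both red points lie left of both blue points.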

How the data were processed

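RNA of 4 MSC lines went through linear amplification and biotin labelling and onto Affymetrix mouse arrays, per the labels' protocols. Each deposited value is the intensity of a probe set, linear by its range. How probes were summarised, background removed and arrays scaled is not given in the sources used here. About 2% of values on each array (2.18 to 2.25%) were exactly 1. No detection calls were used. The members and gene lists were chosen with earlier results of these data known.

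A pseudocount of 13.7, which is 0.25 times the median of the table (54.5), was added to each intensity before log2 was taken. Of 45101 probe sets, 64 were controls, 34945 had 1 gene symbol in the platform annotation, 932 several and 9160 none. A probe set passed when its mean log2 value lay above the 40th percentile, and the brightest one stood for its gene. The test between tissues was limma's (version 3.58.1, R 4.3.3, lmFit and eBayes with an intensity trend, tissue the only term), two-sided, with Benjamini-Hochberg adjustment over all 12920 genes and 2 residual degrees of freedom. With 2 arrays a tissue, the smallest p that exact permutation allows is 0.333, so no such test was run. The p-values measure the spread between these lines only. The procedure was tested on simulated data in which all genes had the same spread. That test therefore does not cover genes with wide gaps between the lines of a tissue. Named genes were all members, up to 4 genes of each pathway list by p, Angpt1 and Kitl. Errfi1 and the marker genes were named after their values were seen. Of the 46 members, 36 had a RefSeq promoter sequence. The same replicate number in both tissues does not pair lines by the labels. The correlation over genes of replicate 1 minus 2 between the tissues was 0.11.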

Additional observations from a re-analysis of the deposited data

How the results depend on the processing

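Of the 41 genes, 0 passed an adjusted p of 0.05 under the 10 alternatives that kept all 4 arrays, where the lowest value was 0.474 for Gdnf with the replicate block. These alternatives changed the normalization, the pseudocount, the filter, the choice of probe set or the eBayes options, or added the replicate number as a replicate block. Fits with 1 array left out leave a single array in a tissue, so no count of genes passing is read from them. This holds for the 41 and for all genes tested. Over all genes none passed, as with the replicate block (0), no filter or the table median as pseudocount. Normalizing by quantiles gave 13 genes, median centring 17, adding 1 as pseudocount 15, the filter at the 60th percentile 15, averaging probe sets 12, dropping the intensity trend 13 and robust eBayes 15. Leaving out 1 array gave 0 to 34 (34 without colonic replicate 1 and 20 without colonic replicate 2). The 4 genes toward colonic MSC by at least 1 without overlap became 1 with the 60th percentile filter, which left 24 of the 41 genes, and 4 to 13 with 1 array left out (9 without bone marrow replicate 1, 13 without colonic replicate 2), where fewer arrays make overlap rarer. The 6 toward bone marrow ranged from 4 to 6. The median difference of 0.32 ranged from -0.01 without colonic replicate 1 to 0.62 without colonic replicate 2.

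With the mean of probe sets, the difference turned to 0.39 for Fgf1 and 0.045 for Fgfr4. Leaving out 1 array turned the direction of 14 genes, which then ranged from -0.22 to 0.18 (Fgfr3), -0.24 to 0.25 (Fgfr4), -0.28 to 1.8e-04 (Fgfrl1), -0.99 to 0.86 (Hbegf), -0.13 to 0.42 (Nrg1), -0.50 to 0.30 (Vegfb), -2.71 to 1.78 (Vegfc), -1.31 to 3.0 (Flt4), -0.94 to 0.41 (Met), -0.44 to 1.08 (Gas6), -0.41 to 1.40 (Bdnf), -0.0099 to 0.062 (Ntrk2), -0.25 to 0.98 (Spry1) and -0.32 to 0.63 (Spry2). The causes were not tested. The direction of the 10 genes apart by at least 1 without overlap did not turn under any alternative in which they passed the filter. Near the floor, the size of a difference depends on the pseudocount.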
